A study of Mus musculus with 2 samples.

Results

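The leukocyte miRNA genes Mir142b, Mir223, Mir150 and Mir155 were followed in hearts of mouse embryos at day 11.5, together with Mir142, which lies on the strand opposite Mir142b. The 4 listed genes were chosen for their known place in leukocytes, with earlier results of these data already known. They were found by Ensembl gene ID among the 1973 miRNA genes of the count table. Mir142, the fifth gene described, has no row there and was read from the counts on the opposite strand of the Mir142b row. MicroRNA sequencing was run on total RNA at sizes under 30 nt from heart tissue of healthy B6NCrl embryos, male and female pooled. The 2 libraries, biological replicates 1 and 2, form a single group of the same age and strain with no treatment named; replicate 1 pooled the hearts of 109 embryos, and for replicate 2 the labels give no number. Whole hearts were sampled, so fewer leukocytes and less miRNA per leukocyte cannot be told apart, and which cells the reads came from was not tested.

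A miRNA gene is transcribed as a longer RNA, from which a hairpin is cut, and then an RNA duplex whose 5p or 3p strand loads into an Argonaute protein. Bases 2 to 8 of the loaded strand, the seed, pair with target messages and lower their output. miR-142 is known as a marker of blood cells in general, miR-223 of neutrophils and other myeloid cells, miR-155 of activated lymphocytes and macrophages, and miR-150 of mature lymphocytes, where it represses Myb. In the embryo the first leukocytes of the heart include macrophages that come in from outside it.

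The mature sequences below are RefSeq's on GRCm38.p6, the build also called mm10, written 5′ to 3′ with the seed in capitals. The table counts whole genes, so 5p and 3p reads are not separated. The sequences are shown because they tell whether another miRNA could carry the same reads or the same seed.
mmu-miR-142a-5p: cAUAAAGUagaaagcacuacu
mmu-miR-142a-3p: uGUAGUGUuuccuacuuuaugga
mmu-miR-142b: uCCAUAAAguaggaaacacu
mmu-miR-223-5p: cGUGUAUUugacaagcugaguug
mmu-miR-223-3p: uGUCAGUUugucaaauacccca
mmu-miR-155-5p: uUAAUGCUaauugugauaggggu
mmu-miR-155-3p: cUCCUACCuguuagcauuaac
mmu-miR-150-3p: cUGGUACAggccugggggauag

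The 8 mature sequences had 8 different seeds, so these sequences do not form a seed family. The other arm of Mir150, miR-150-5p, is not among them, so its seed was not compared. None of the 8 seeds recurred in another of the 1679 mature miRNAs of the RefSeq table. The 7 mature sequences of Mir142, Mir142b, Mir223 and Mir155 each occurred in the hairpin of their own gene alone. The miR-150-3p sequence occurred in the GENCODE transcript of Mir150 and in no other gene's transcript. The miR-223 and miR-155 sequences occurred in their own gene and in the long RNA that hosts it. No second locus was therefore found that would turn reads of these sequences into multimapping reads. The search covered annotated transcripts and hairpins and not the genome, and it did not cover miR-150-5p. By base composition the sequences differed. miR-142a-3p and miR-155-5p were both 34.8% G and C, miR-223-3p was 40.9% and miR-150-3p was 63.6%, against a median of 52.2% over the table. Of the other arms, miR-142a-5p was 33.3%, miR-223-5p 43.5% and miR-155-3p 42.9%. Which arm carried the reads of a gene is not known from the counts.

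The genes lie on 4 chromosomes and 3 of them have a host RNA on their own strand. Mir142 (ENSMUSG00000105196.1) lies on the plus strand of chromosome 11 from 87756864 to 87756927, in an intron of the only annotated transcript of the long noncoding RNA Mir142hg. Mir142b (ENSMUSG00000065420.2) lies on the minus strand from 87756841 to 87756955 and has no host on that strand. Mir223 (ENSMUSG00000076066.1) lies on the plus strand of chromosome X from 96242817 to 96242926, in an exon of both annotated transcripts of F630028O10Rik. Mir155 (ENSMUSG00000065397.1) lies on the plus strand of chromosome 16 from 84714140 to 84714204, in an exon of both annotated transcripts of Mir155hg. Mir150 (ENSMUSG00000065495.1) lies on the plus strand of chromosome 7 from 45121757 to 45121821, in no annotated gene. Apart from the pair on chromosome 11, no member has an annotated miRNA close by: the nearest to Mir150 is Mir5121 at 5097 bases, and those of Mir223 and Mir155 are 1847890 and 6239591 bases away.

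Mir142 and Mir142b overlap on opposite strands, and the count table lists only Mir142b. Their hairpins, again from RefSeq and with the mature sequences in capitals, are given to show what the strand of a read decides.
Mir142 hairpin, chr11:87756864-87756927, plus strand: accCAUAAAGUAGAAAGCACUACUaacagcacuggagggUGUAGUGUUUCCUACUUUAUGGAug
Mir142b hairpin, chr11:87756841-87756955, minus strand: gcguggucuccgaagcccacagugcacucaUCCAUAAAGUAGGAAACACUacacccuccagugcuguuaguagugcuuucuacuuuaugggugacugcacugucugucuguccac

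The reverse complement of the 115 bases of the Mir142b hairpin holds all 64 bases of the Mir142 hairpin. The 20 bases of miR-142b are the reverse complement of bases 4 to 23 of miR-142a-3p. Because both arms of a hairpin are nearly complementary, miR-142b also resembles miR-142a-5p, with 16 identical bases of 18 in the best ungapped alignment, and their seeds still differ.

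At this row the reads lay on the Mir142 strand. Replicate 1 had 44629 counts on the strand of Mir142 and 1 on that of Mir142b, and replicate 2 had 4183 and 0. The share on the Mir142 strand was thus 99.998% in replicate 1, with an exact 95% Clopper-Pearson interval from 99.988%, and 100% in replicate 2, with an interval from 99.912%. In replicate 1 the ratio of Mir142 to Mir142b was 44629 with an exact interval from 8010 to 1762790, and in replicate 2 the exact interval began at 1133. Taking 3 counts per library as the limit for a count of 0, which is less cautious than that interval, the ratio in replicate 2 was at least 1394. In CPM, which are counts scaled to a total of 1000000 own-strand miRNA reads per library, that limit came to 0.162 for replicate 1 and 1.49 for replicate 2. For Mir142b the exact Poisson interval reached up to 1.83 CPM in the shallower library, where it had 0 counts. In the deeper one it stood at 0.054 CPM, with an interval of 0.0014 to 0.302.

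**Figure D1:**
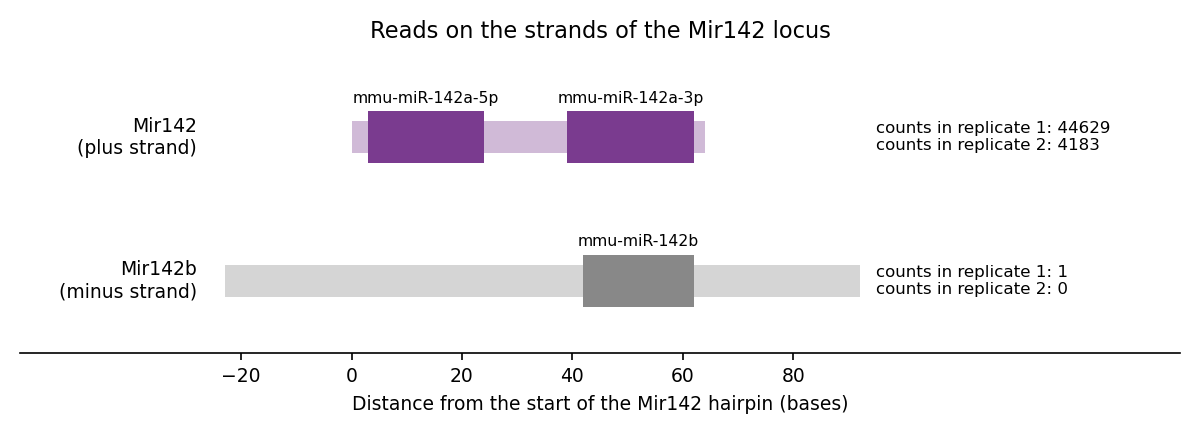
Map of the Mir142 locus, drawn to scale in bases from the start of the Mir142 hairpin, with hairpins as pale bars and mature sequences as dark bars. The counts beside each strand are those of the Mir142b row, with 44629 and 4183 on the Mir142 strand and 1 and 0 on the Mir142b strand.

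A row read on its opposite strand was uncommon. Of 234 rows with at least 100 reads over both strands in each library, 9 rows, or 3.85%, had more reads on the opposite than on the own strand in both libraries, and in all 9 the opposite share was above 99% in both. The median opposite share over the 234 rows was 0% in either library. Mir223 and Mir155 had 0 opposite-strand counts in both libraries, which for 4706 and 2367 own-strand counts in replicate 1 gives upper limits of 0.0784% and 0.156% (exact 95% intervals). Mir150 had 2 opposite-strand counts beside 235 own-strand counts in replicate 1, or 0.844% with an interval of 0.102 to 3.01%, and 0 beside 40 in replicate 2.

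**Figure D2:**
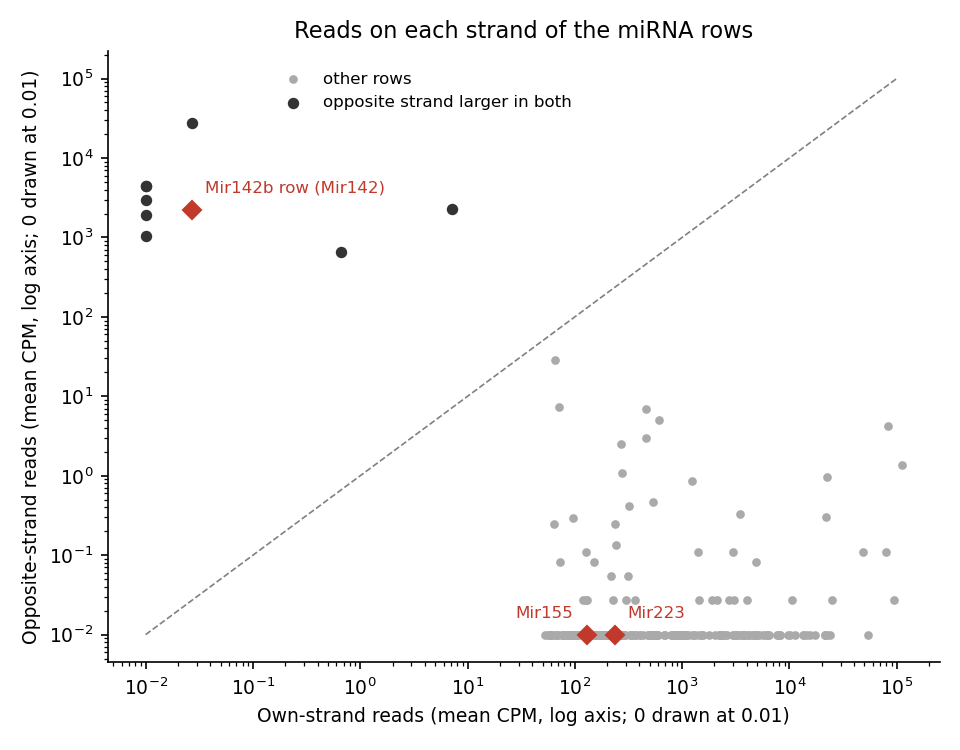
Mean CPM on the opposite strand against mean CPM on the own strand for the 234 rows with at least 100 reads in each library, on log axes with 0 drawn at 0.01 and a dashed line of equality. The Mir142b row is 1 of 9 above the line, while Mir223 and Mir155 sit at 0 opposite-strand reads; Mir150 has too few reads for this plot.

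Levels were compared as CPM and were not divided by length, since a read stands for a whole short RNA. Own-strand reads totalled 18467499 in replicate 1 and 2017294 in replicate 2, so replicate 1 is the more precise by counting. The miRNAs listed for heart muscle, Mir208a, Mir208b and Mir499, were all detected, with a summed level of 60764 ± 3356 CPM (SD, n = 2). Endothelial Mir126a stood at 82102 ± 3673 CPM (SD, n = 2). That list leaves out the muscle miRNAs miR-1 and miR-133. Their rows Mir1a-1, Mir133a-1 and Mir133b had means of 2.23, 3.54 and 5.20 CPM. Mir1a-1 and Mir133a-1 are uncertain, each as 1 of several loci. Detection meant at least 1 CPM in both libraries and held for 419 of the 1973 own-strand rows.

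Mir142 was the most abundant of the members, at 2417 CPM for replicate 1 and 2074 CPM for replicate 2, a mean of 2245 ± 243 (SD, n = 2). Exact Poisson intervals, which cover counting error only, were 2394 to 2439 and 2011 to 2137 CPM. The libraries lay further apart than these intervals, so the difference between them exceeds counting error. By mean CPM Mir142 would take rank 66 among the own-strand rows, above 84.5% of the detected ones. The rows next to it were Mir107, from an intron of a Pank gene, at 2264 ± 97 CPM and Mir541, of the imprinted cluster on chromosome 12, at 2204 ± 5 CPM (SD, n = 2), and Mir142 differed from both by less than its own spread.

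Mir223, the myeloid member, stood at 255 CPM and 218 CPM for replicates 1 and 2, a mean of 236 ± 26 (SD, n = 2) from 4706 and 439 counts. Its Poisson intervals were 248 to 262 and 198 to 239 CPM, and they did not overlap. It took rank 149, above 64.4% of the detected rows. Its neighbours in the order were Mir182, from a sensory cluster, at 239 ± 54 CPM and Mir6236 at 234 ± 116 CPM (SD, n = 2). These means differed from that of Mir223 by less than the spread, although Mir6236 was higher in replicate 2 and Mir182 lower.

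Mir155, the member tied to activated lymphocytes and macrophages, stood at 128 CPM and 129 CPM for replicates 1 and 2, a mean of 128.5 ± 0.5 (SD, n = 2) from 2367 and 260 counts. Its intervals were 123 to 133 and 114 to 146 CPM, so the libraries overlapped. It took rank 184, above 56.1% of the detected rows, whose median was 80.5 CPM. It lay between Mir30c-1, at 129.8 ± 1.4 CPM, which belongs to the miR-30 family and is uncertain as 1 of several loci, and Mir505 at 127.8 ± 7.6 CPM (SD, n = 2).

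Mir150 was the scarcest detected member, at 12.7 CPM for replicate 1 and 19.8 CPM for replicate 2, a mean of 16.3 ± 5.0 (SD, n = 2). It rested on 235 and 40 counts, and its intervals of 11.2 to 14.5 and 14.2 to 27.0 CPM overlapped slightly. It took rank 278, with 33.7% of the detected rows below it. Its neighbours were Mir6546 at 16.8 ± 4.3 CPM and Mir1249 at 15.9 ± 0.7 CPM (SD, n = 2).

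The 4 detected members together held 0.281% as many reads as the own-strand total in replicate 1 and 0.244% in replicate 2. Mir142 made up 85.9% of that sum in replicate 1 and 85.0% in replicate 2, with exact intervals of 85.6 to 86.2% and 84.0 to 85.97%. Mir223 made up 9.06% and 8.92%, Mir155 4.56% and 5.28%, and Mir150 0.452% and 0.813%. The shares of Mir142 and Mir223 were alike within counting error in both libraries, and only for Mir150 did the exact intervals, 0.397 to 0.514% and 0.581 to 1.11%, stand apart.

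**Figure D3:**
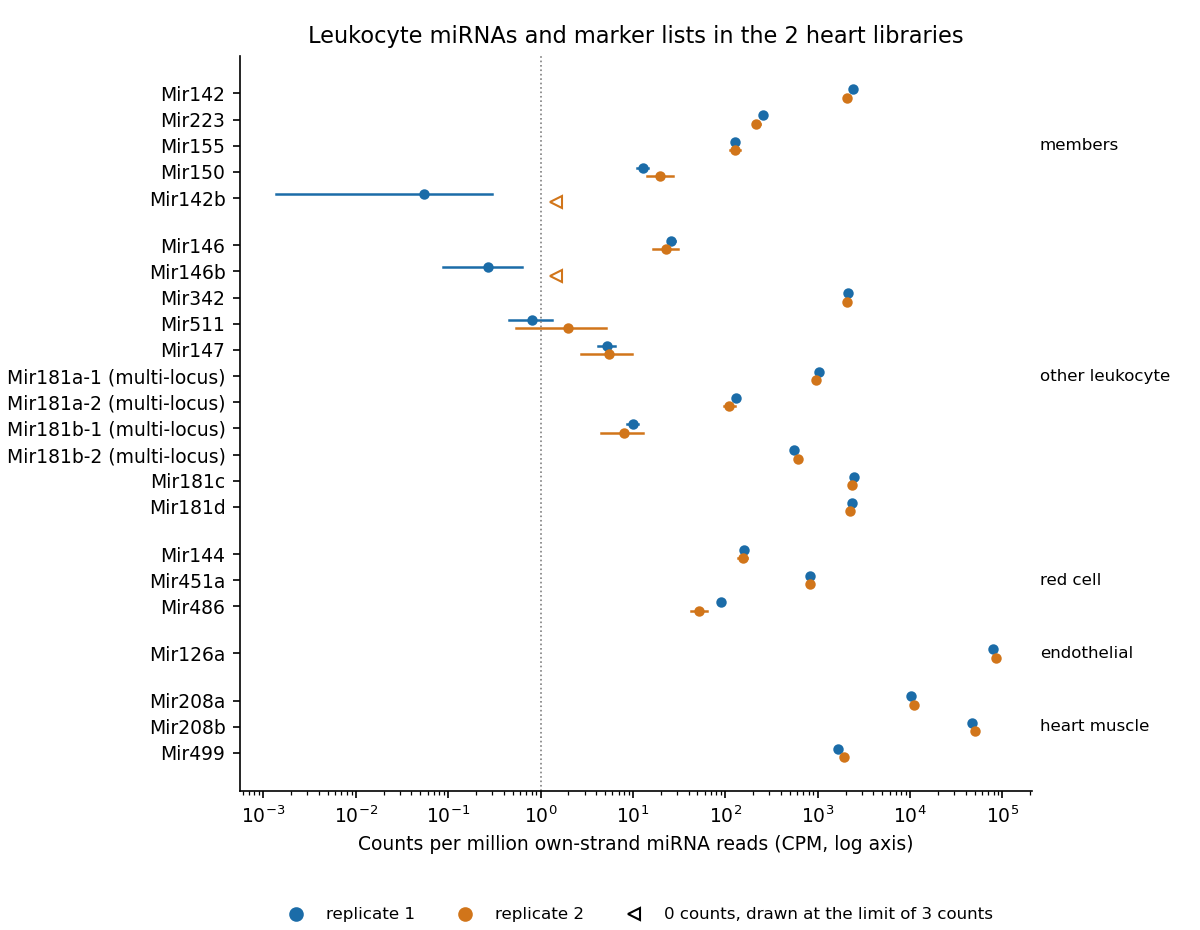
Level of each gene in CPM on a log axis, 1 point per library with its exact 95% Poisson interval, for the members and the lists of other leukocyte, red cell, endothelial and heart muscle miRNAs; the dotted line is the detection limit of 1 CPM and open triangles mark 0 counts. The members run from Mir142 at a mean of 2245 CPM down to Mir150 at 16.3 CPM, with Mir142b under the detection limit in replicate 1 and at 0 in replicate 2.

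The order Mir142, Mir223, Mir155, Mir150 was the same in both libraries, and no pair of neighbours in it was level. Ratios were taken within each library, where depth cancels. A ratio counted as larger than the spread where both libraries went the same way, both exact binomial intervals excluded equality and the mean log2 ratio exceeded its SD. No p is given across the libraries, since 2 of them allow none below 0.5 in an exact sign-flip test. All 6 ratios among the detected members met the rule. They compare counts, and a difference in how readily each miRNA enters a library would be visible in neither of these errors.

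Mir142 to Mir223 was the steadiest of the 6 ratios. It was 9.48 in replicate 1, with an interval of 9.20 to 9.77, and 9.53 in replicate 2, with an interval of 8.63 to 10.5. On the log2 scale the mean was 3.25 ± 0.005 (SD, n = 2). The marker of blood cells in general and the myeloid marker thus stood in like proportion, with overlapping intervals, in libraries whose depth differed 9.15-fold. Mir223 to Mir155 was the closest of the 6, at 1.99 in replicate 1 and 1.69 in replicate 2, with intervals of 1.89 to 2.09 and 1.45 to 1.98 and a mean log2 ratio of 0.87 ± 0.17 (SD, n = 2). Mir142 exceeded Mir155 18.9-fold and 16.1-fold, a mean log2 ratio of 4.12 ± 0.16 (SD, n = 2).

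The ratios to Mir150, the marker of mature lymphocytes, were large and less steady. Mir155 exceeded Mir150 10.1-fold in replicate 1 and 6.50-fold in replicate 2, a mean log2 ratio of 3.02 ± 0.45 (SD, n = 2). Mir223 exceeded it 20.03-fold and 10.98-fold, with intervals of 17.6 to 22.9 and 7.93 to 15.6 that did not overlap. Mir142 exceeded it 190-fold and 105-fold, with intervals of 167 to 217 and 76.7 to 147 that did not overlap either. The Mir150 count of 40 in replicate 2 sets the width of the intervals there.

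**Figure D4:**
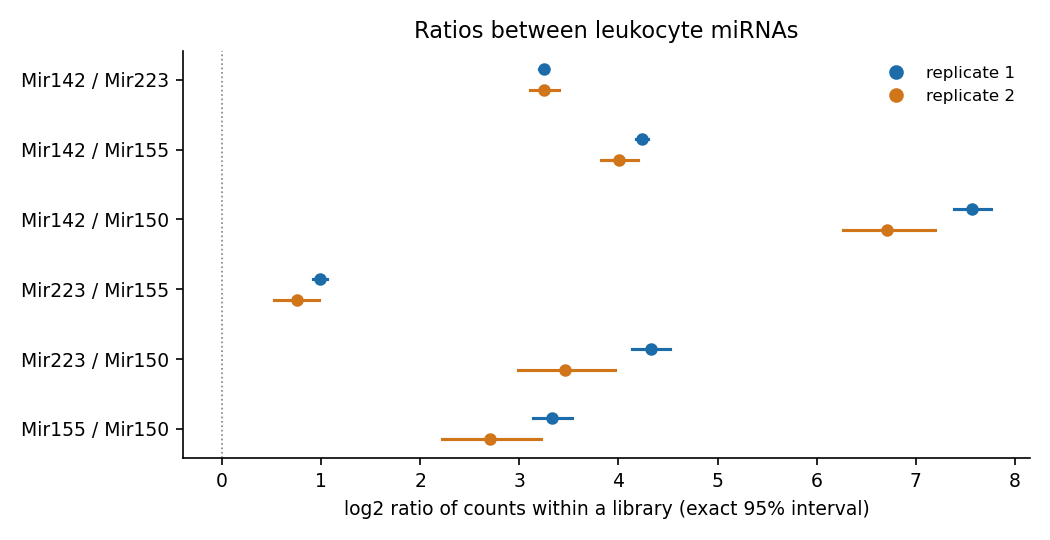
Log2 ratio of counts for each of the 6 pairs of detected members, 1 point per library with its exact 95% interval; the dotted line marks equality. All 12 intervals lie above equality, the points for Mir142 / Mir223 coincide at 3.25, and replicate 2 lies lower in the other 5 ratios, with intervals apart from those of replicate 1 for Mir142 / Mir150 and Mir223 / Mir150.

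Replicate 2 was then set against replicate 1 for every row. An exact binomial test (two-sided, at the ratio of the own-strand totals) was run on 439 rows, 419 own-strand and 20 opposite-strand, with Benjamini-Hochberg adjustment over all of them. It compares 2 libraries, not conditions, and allows for counting error alone. At an adjusted p under 0.05 and a fold of at least 2, 12 of the 439 rows, or 2.73%, were called, and none of the 4 detected members was among them. Without the fold minimum 131 rows, or 29.8%, passed, 15.3% lower and 14.6% higher in replicate 2. Of the members 2 passed as lower, 1 as higher and 1 did not pass. Smaller ratios pass in rows with more counts, and the share over all rows is not matched to the members in depth. Mir142 lay above 84.5% of the detected rows and Mir150 above 33.7%.

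Mir142 and Mir223 were lower in replicate 2 by almost the same factor. The ratio was 0.858 for Mir142, whose exact interval ran from 0.831 to 0.886, at an adjusted p of 7.2e-21. For Mir223 it was 0.854, with bounds of 0.773 and 0.942, at an adjusted p of 0.00664 (both by the exact binomial test). On the log2 scale these were -0.22 and -0.23. Mir155 had a log2 ratio of 0.01, with an interval of -0.18 to 0.19, and did not pass (exact binomial test, adjusted p = 1). Mir150 was higher in replicate 2: its ratio was 1.56, with an interval of 1.09 to 2.19 and a log2 ratio of 0.64 (exact binomial test, adjusted p = 0.0488).

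These 3 calls ended once the spread over genes was allowed for. edgeR's exact test used a common biological coefficient of variation of 17.96%, estimated from these same libraries. In that test the adjusted p was 1 for all 4 members. The differences tested themselves set that coefficient, so a call lost there is not independent evidence of equal levels. Mir150 lost its call under other scalings and filters as well. Over 10 fits the adjusted p ran from 1.3e-23 to 1 for Mir142, from 0.00331 to 1 for Mir223, from 0.977 to 1 for Mir155 and from 0.0382 to 1 for Mir150. The size of the log2 ratio exceeded that of 63.1% of the 439 rows for Mir142, 63.3% for Mir223, 3.64% for Mir155 and 86.3% for Mir150. The members' median log2 ratio was -0.11, beside -0.02 over all rows tested.

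**Figure D5:**
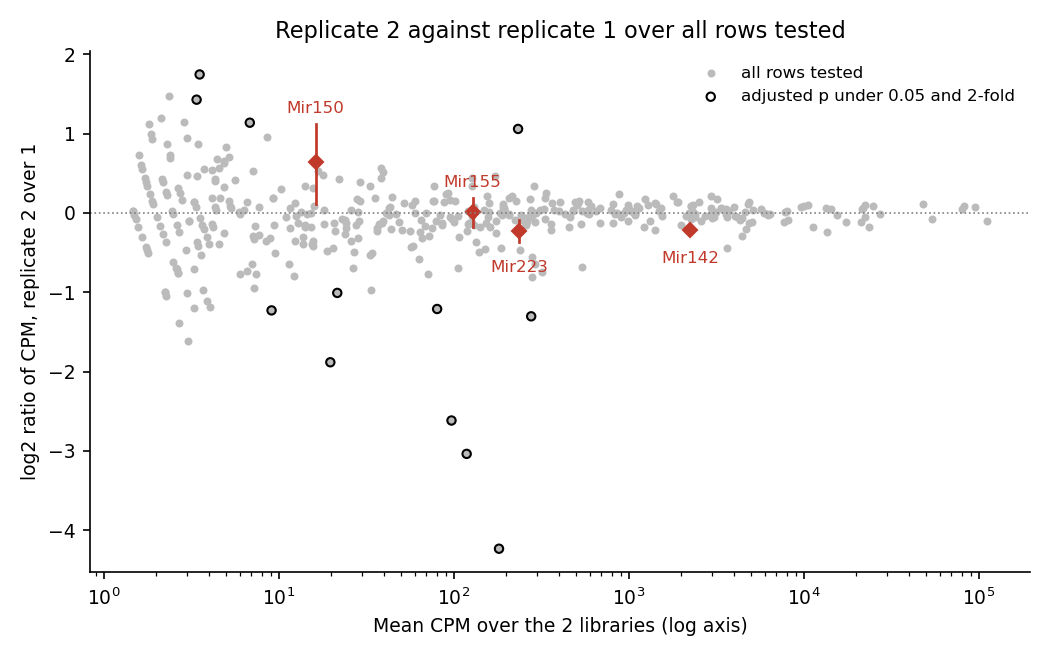
Log2 ratio of CPM, replicate 2 over replicate 1, against mean CPM on a log axis for the 439 rows tested, with the 4 detected members as diamonds with exact 95% intervals and the 12 rows called at 2-fold as circles. Mir142 and Mir223 sit at -0.22 and -0.23, Mir155 at 0.01 and Mir150 at 0.64, and none of the 4 is circled.

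Other miRNAs known from leukocytes were taken from a list of 11 rows, of which 9 were detected. Mir342, known from lymphocytes and monocytes and encoded in an intron of Evl, stood at 2147 and 2095 CPM for replicates 1 and 2, beside 2417 and 2074 CPM for Mir142. Mir146, the row of miR-146a, which restrains inflammatory signalling, stood at 26.0 and 22.8 CPM. Mir147, which macrophages induce on stimulation, stood at 5.20 and 5.45 CPM. None of these 3 passed the test between libraries. Mir511, which lies in the gene of the macrophage mannose receptor Mrc1, had 15 and 4 counts, or 0.812 and 1.98 CPM, and missed the detection limit in replicate 1 alone. Mir146b had 5 counts in replicate 1 and 0 in replicate 2.

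The miR-181 genes, which are known from lymphocyte development and are also read in many other tissues, spanned a wide range. The 2 highest, near Mir142, were Mir181c at 2408 ± 58 CPM and Mir181d at 2275 ± 80 CPM (SD, n = 2). Mir181a-1, Mir181a-2, Mir181b-1 and Mir181b-2 ran from 8.92 to 992 CPM and are uncertain, because their mature sequences occur at several loci. Of the 9 detected genes of the list, 2 were lower in replicate 2 without a fold minimum, 1 was higher and 6 did not pass, and none reached 2-fold. The 3 that passed are a share near the 29.8% of all rows, and all 3 lost the call in edgeR's exact test, at an adjusted p of 1. The list's median log2 ratio was -0.07.

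Red cell miRNAs gave the other blood reference. Mir451a, which red cell precursors need to mature, stood at 835 and 829 CPM for replicates 1 and 2, and Mir144 of the same locus at 160 and 154 CPM. Neither passed the test between libraries. Mir451a was below Mir142 in both libraries, by a ratio of 0.346 (interval 0.339 to 0.352) and 0.400 (interval 0.378 to 0.423). Against Mir223 it was 3.28-fold higher in replicate 1 and 3.81-fold higher in replicate 2. Mir486, whose row also held 176 and 10 opposite-strand counts, stood at 89.5 and 52.5 CPM and was lower in replicate 2 without reaching 2-fold (exact binomial test, adjusted p = 9.2e-08); in edgeR's exact test it did not pass, at an adjusted p of 1. Of the 3 red cell genes, 1 passed as lower in the binomial test, beside 15.3% of all rows, and 2 did not pass.

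Of the listed heart muscle and endothelial markers, Mir126a, Mir208b and Mir208a stood above Mir142 in both libraries. Mir499, from an intron of a myosin heavy chain gene, stood below it in both, at 1663 and 1926 CPM. Mir208b, from an intron of another myosin heavy chain gene, exceeded Mir142 19.2-fold in replicate 1 and 24.2-fold in replicate 2. Mir126a exceeded Mir142 32.9-fold and 40.8-fold. All 4 of these tissue markers were slightly higher in replicate 2, with log2 ratios from 0.09 to 0.21. All passed the exact binomial test without a fold minimum, as 14.6% of all rows did in that direction. The test passes smaller ratios in rows with more counts: Mir652, at a mean of 15629 CPM, passed with a log2 ratio of -0.03. These 4 markers have more counts than most rows, so that share is not matched to them in depth. In edgeR's exact test none of the 4 passed, each at an adjusted p of 1. Their direction was opposite to that of Mir142 and Mir223; their part in that difference was not tested.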

How the data were processed

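Tables of raw counts of reads on miRNA genes, 1 per heart library, were used as the authors deposited them. Notes beside them name mm10 and GENCODE M4; for the aligner and the counter, nothing was given in the sources used here. The 3 count columns carry no names. They were taken as both strands, own strand and opposite strand, since the last 2 add up to the first for all 1973 genes; no source used here states this. Summary rows stayed out of totals: in replicates 1 and 2, 38.4% and 27.5% of reads were unmapped, 20.8% and 24.1% multimapping. Symbols and coordinates (1-based) came from GENCODE M21 on the same build, which matched 1894 IDs, and sequences from RefSeq tables.

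CPM used own-strand totals, also for Mir142. Intervals are exact at 95%. With 1 group and 1 library a side, edgeR's quasi-likelihood test has no residual degrees of freedom. An exact binomial test was therefore used (scipy 1.17.1). It was checked on simulated counts with counting error alone, for calls that also reached 2-fold. That check cannot speak for calls without a fold minimum, or for spread beyond counting error. Alternatives came from edgeR 4.0.16 and DESeq2 1.42.0. Named genes were the members, their neighbours in mean CPM, and fixed lists of other leukocyte, red cell, endothelial and heart muscle miRNAs. Likeness in pattern was taken as closeness of mean CPM, since 2 libraries of 1 group hold a single ratio. Members and lists were chosen with earlier results of these data known.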

Additional observations from a re-analysis of the deposited data

How the results depend on the processing

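Of 120 alternative values for 17 results, 107 met their rule for no change. For ratios the rule was the same direction and side of the threshold. It was less than 1 SD of movement for levels and shares, and within 1.5 times for the counts of called rows. Some of these could not have failed. Dropping either library always moves a level or share by less than 1 SD. The settings that added a constant to the CPM reused the adjusted p of the main test. The 6 ratios between members met their rule under all alternatives run, which were added counts, the unstranded column and each library alone. These were weak checks. The rule already asks each library to pass alone, and the intervals were not recomputed with the added counts. The unstranded column changed only the ratios to Mir150, since Mir142 kept its strand and Mir223 and Mir155 had no opposite-strand counts. The Mir155 level was 122.7 CPM when scaled to the total of both strands, against 128.5 CPM. The Mir155 difference between libraries turned from a log2 ratio of 0.00802 to -0.00604 with TMM, -0.00557 with DESeq2 size factors and -0.00604 with edgeR's exact test, all at an adjusted p of 1. Mir150 kept its direction and lost its call with TMM (log2 ratio 0.63, adjusted p 0.0520), DESeq2 size factors (0.63, adjusted p 0.0523), detection at 0.5 CPM (0.64, adjusted p 0.0531), no filter (0.64, adjusted p 0.0668) and edgeR's exact test (0.63, adjusted p 1). The filters at 0.5 CPM and at 1 count were added after the data were seen, and test more rows. With edgeR's exact test Mir142 (-0.23) and Mir223 (-0.24) also lost theirs, and 5 rows were called with or without the fold minimum, against 12 and 131; that test allows for the spread over genes as well as for counting. No member reached 2-fold in any of the 40 fits. Depth limits Mir150 in replicate 2, with 40 counts, and Mir142b, with 1 count in all.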
